A study of Mus musculus with 6 samples.

Results

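The Slc25 genes encode the mitochondrial carrier family, the proteins that move metabolites across the inner mitochondrial membrane. Members were all genes whose symbol begins with Slc25a among array probe sets that name a single gene, and each gene was read from its probe set with the highest mean signal over all arrays. This rule, which used no comparison of genotypes, gave 44 family genes of 18193 genes named in all. Of these, 37 had a mean signal above the median of the array and were tested, beside 11140 tested genes in the whole series. The other 7 members (Slc25a2, Slc25a13, Slc25a14, Slc25a18, Slc25a31, Slc25a41 and Slc25a54) had mean signals of at most 0.620 of the array median and no single signal above 1.03, and they were not tested.

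Signals came from brown adipose tissue (BAT), the fat that burns fuel for heat, of 3 KRAP-/- (KO) and 3 wild-type (WT) mice, with 1 Affymetrix array for each animal. KRAP is an actin-associated protein, and the KO allele carries a neomycin resistance cassette in place of its exons 11 to 16 in all tissues. Both groups came from a line backcrossed 6 times to C57BL6/J, ate normal chow and were 32 weeks old, and each KO animal (KO 1 to KO 3) was compared with its numbered WT littermate. The question was which transcripts of the tissue differ between the genotypes. Every signal below is a multiple of its array's median, all log2 differences are KO minus WT within littermate pairs from limma with 95% confidence intervals (CI), and 3 arrays in each group limit the precision.

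A carrier of this family is a small protein with 3 similar repeats that form a closed bundle of membrane helices, and it opens in turn to either side of the inner membrane. Most members exchange a substrate of the matrix for one of the cytosol, which lets fuel oxidation, ATP export, amino acid breakdown and cofactor supply run across a membrane that is otherwise tight. Uncoupling protein 1, encoded by Ucp1, is a carrier of the same family and gives brown fat its heat, although its symbol lies outside the rule used here. BAT is packed with mitochondria, so carriers for phosphate, adenine nucleotides and acylcarnitines are among its abundant membrane proteins.

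The tissue label was checked against marker genes. All 8 brown adipocyte markers, Ucp1 and Cidea among them, were measured above the array median, and their summed signal was 1864 to 2607 in KO and 1863 to 2547 in WT. Array medians lay between 16.5 and 20.4 intensity units. WT 2 stood apart in RNA controls, with an actin 3′ to 5′ ratio of 3.80 against 1.91 to 2.58 on the other arrays. Its 18S rRNA intensity, not divided by the array median, was 1731 units against 112.4 to 214.9. Summed skeletal muscle markers reached 776.6 in KO 2 and 314.0 in WT 3 against 28.6 to 103.7 elsewhere, and summed liver markers reached 52.6 in KO 3 against 2.70 to 3.86. Of the nerve markers, S100b read 14.9 to 22.6 in KO and 43.1 to 71.7 in WT, Mbp overlapped between the groups, and Th was not tested, with higher signals in KO in all 3 pairs. The summed endothelial markers were 42.6 to 48.5 in KO and 53.2 to 59.5 in WT, but each single marker overlapped between the groups. Cdh5, Kdr and Cldn5 were lower in KO in all 3 pairs and Tek in 2, and Pecam1 (0.05) was higher in 2. Of the 6 white adipocyte markers, Lep (-2.07), Sncg (-1.87), Mest (-1.67), Nnat (-1.65) and Npr3 (-1.42) were lower in KO in all 3 pairs and Retn (0.95) was higher, as log2 differences with limma adjusted p from 0.211 to 0.413. The part of these markers in the results below was not tested. KRAP itself, now named Itprid2, had 1 probe set, with KO signals of 47.0, 35.1 and 41.4 and WT signals of 55.3, 56.6 and 42.2. No source used here places it inside or outside the replaced exons, so it does not check the genotype labels.

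None of the 37 carriers passed limma at a Benjamini-Hochberg adjusted p of 0.05, where 0 of 22356 tested probe sets passed (0% of all), and the smallest adjusted p in the family was 0.486. At an unadjusted p under 0.05 stood 3 carriers that were higher in KO and 1 that was lower, against 3.22% and 4.98% of all tested genes (8.2% in either direction). Log2 differences ran from -0.80 for Slc25a48 to 0.80 for Slc25a34, with 24 below 0 (64.9%, against 61.5% of all tested genes) and 13 above. The family median was -0.09, beside -0.07 for all tested genes. These shares and medians depend on the scaling. Over all tested probe sets the median was -0.05 here, 0.009 with the signals as deposited and 0.001 after quantile normalization. The KO animal was higher in all 3 pairs for 6 carriers (Slc25a24, Slc25a27, Slc25a33, Slc25a34, Slc25a42 and Slc25a47), where 10.9% of all tested genes did the same. It was lower in all 3 pairs for 7 carriers (Slc25a3, Slc25a4, Slc25a23, Slc25a35, Slc25a36, Slc25a37 and Slc25a48), where the share among all tested genes was 19.7%. By the rule of the study, 1.5-fold in each of the 3 pairs, 0 carriers were higher and 0 lower at their brightest probe set. Of all tested genes, 0.601% were higher and 0.862% lower by it. A dimmer, untested probe set of Slc25a25 (mean signal 0.422) met the rule as lower in KO, at ratios of 0.583, 0.173 and 0.540. The 6 animals separated by genotype without overlap for 2 carriers that were higher in KO (Slc25a42 and Slc25a47) and 3 that were lower (Slc25a3, Slc25a36 and Slc25a48), and the shares over all tested genes were 4.43% and 7.87%.

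A miss of the threshold does not show that a carrier was unchanged. The CI of a carrier reached 0.50 log2 units (median over the 37) to either side of its estimate, a factor of 1.41. For 8 carriers the whole CI lay within 1.5-fold in either direction. In 11 carriers all 6 animals lay within 1.5-fold of each other, whatever the genotype.

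**Figure D1:**
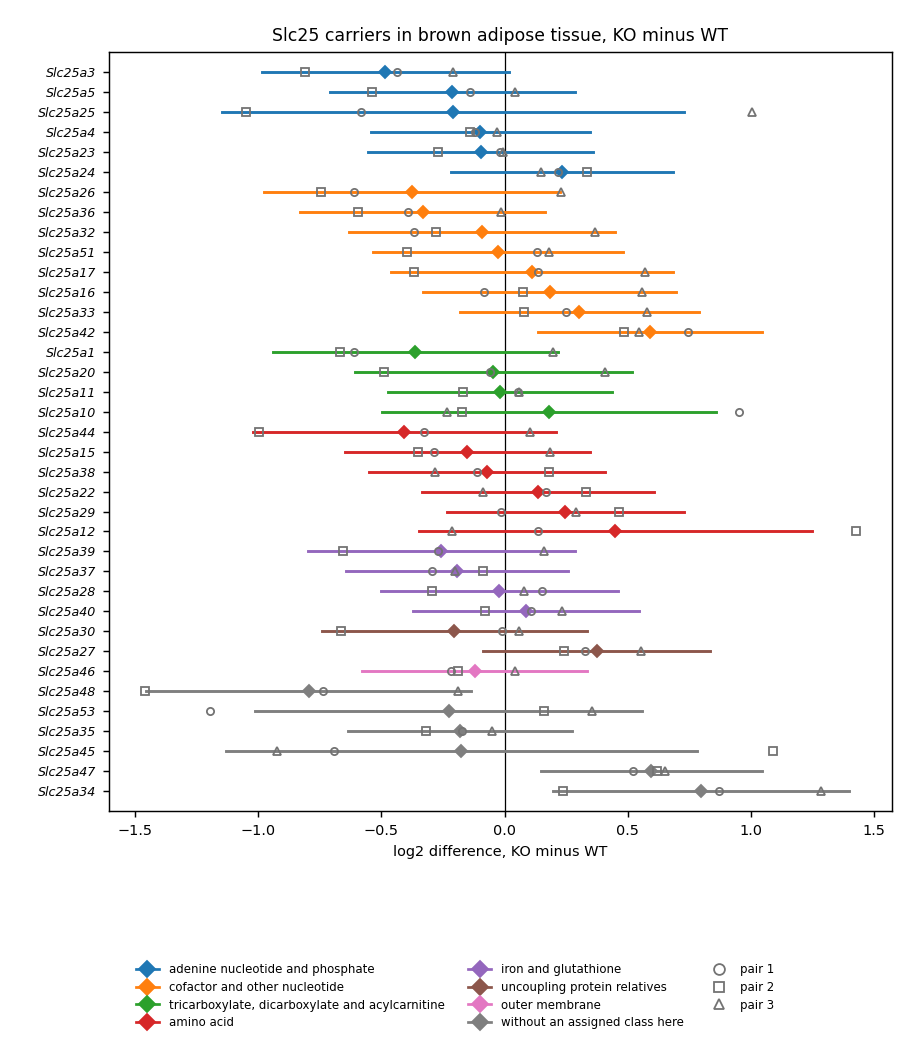
Log2 difference, KO minus WT, of the 37 tested Slc25 genes (vertical axis, grouped by transported substrate); diamonds are limma estimates, bars are 95% confidence intervals and open symbols are the 3 littermate pairs. The intervals of Slc25a42, Slc25a47, Slc25a34 and Slc25a48 leave out 0, and those of the other 33 genes include it.

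Among cofactor carriers, Slc25a42, which brings coenzyme A into mitochondria, had the clearest separation. Its signals in order of the pairs were 43.4, 28.1 and 34.0 in KO, against 26.0, 20.1 and 23.3 in WT. Every KO animal lay above every WT animal, and the KO littermate was 1.67, 1.40 and 1.46 times the WT one in pairs 1 to 3. The means were 35.2 ± 7.75 (SD, n = 3) and 23.1 ± 2.94 (SD, n = 3), a log2 difference of 0.59 (CI 0.13 to 1.05), 1.51-fold, with an unadjusted p of 0.0187 and an adjusted p of 0.494 by limma. A dimmer probe set of the gene, at 2.76, 1.63 and 1.65 in KO and 2.37, 2.17 and 1.14 in WT, overlapped between the genotypes with a log2 difference of 0.11.

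Slc25a47, a carrier known mainly from liver, was dim in BAT. It read 3.36, 2.69 and 3.11 in KO and 2.35, 1.75 and 1.99 in WT. The groups did not overlap, and the ratios within pairs were close to each other at 1.43, 1.54 and 1.57. Means of 3.06 ± 0.337 (SD, n = 3) and 2.03 ± 0.299 (SD, n = 3) gave a log2 difference of 0.60 (CI 0.15 to 1.04; limma unadjusted p = 0.0165, adjusted p = 0.486). The liver markers summed to 52.6 in KO 3, and Alb among them read 1.18, 1.06 and 28.5 in KO and 0.772, 0.640 and 0.997 in WT, without overlap. The part of liver RNA in the Slc25a47 signal was not tested, and without pair 3 the difference of Slc25a47 was 0.57.

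Slc25a34, to which no substrate is assigned here, had the largest positive difference of the tested family. Its signals were 4.31, 3.15 and 2.40 in KO and 2.36, 2.67 and 0.986 in WT. Each KO animal lay above its own littermate, but KO 3 was below WT 2, so the groups overlapped. The log2 difference was 0.80 (CI 0.20 to 1.40), 1.74-fold, with a limma unadjusted p of 0.0168 and an adjusted p of 0.486. It was 1.08 without pair 2 and 0.55 without pair 3.

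Slc25a48, a carrier of choline, lay lowest in KO relative to WT. It read 3.15, 2.77 and 4.37 in KO and 5.26, 7.62 and 4.99 in WT. All KO animals were below all WT animals, with WT 2 the highest. The means were 3.43 ± 0.837 (SD, n = 3) and 5.96 ± 1.45 (SD, n = 3), a log2 difference of -0.80 (CI -1.46 to -0.14), 1.74-fold lower in KO (limma unadjusted p = 0.0250, adjusted p = 0.515). Without pair 2, which holds the array that stood apart, the difference was -0.46, and without pair 3 it was -1.10.

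**Figure D2:**
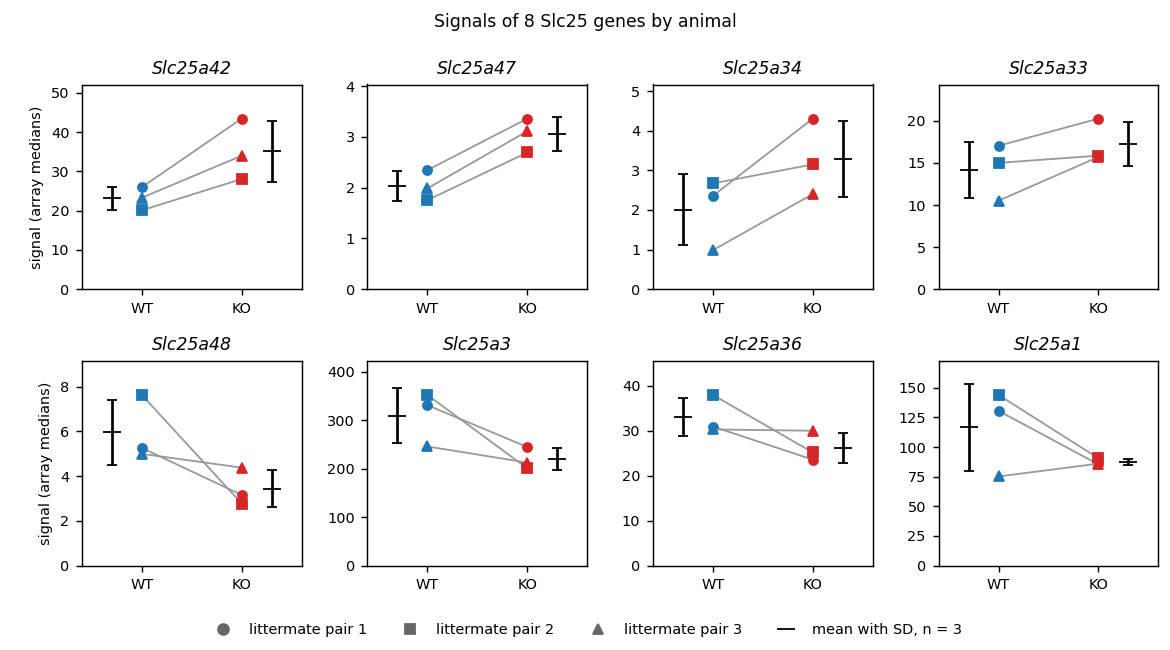
Signal in multiples of the array median (vertical axes, from 0) of 8 Slc25 genes in each WT (blue) and KO (red) animal; grey lines join littermates and black bars give the mean with SD, n = 3. Slc25a42 and Slc25a47 separate upwards in KO and Slc25a48, Slc25a3 and Slc25a36 downwards, while Slc25a34, Slc25a33 and Slc25a1 overlap.

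The promoters of the 4 carriers with an unadjusted p under 0.05, and of Slc25a3, the brightest carrier whose groups did not overlap, are shown as the 250 bases before the RefSeq transcription start in GRCm38.p6, 5′ to 3′ in the direction of the gene. Capitals mark matches on either strand to CCAAT (the CCAAT box), GGGCGG (the Sp1 GC box), GCGCA followed after any 1 base by GCGC (NRF-1) and CCGGAAG (GABP); NRF-1 and GABP are factors known for nuclear genes of mitochondria.
Slc25a42, chr8:70212282-70212531, minus strand: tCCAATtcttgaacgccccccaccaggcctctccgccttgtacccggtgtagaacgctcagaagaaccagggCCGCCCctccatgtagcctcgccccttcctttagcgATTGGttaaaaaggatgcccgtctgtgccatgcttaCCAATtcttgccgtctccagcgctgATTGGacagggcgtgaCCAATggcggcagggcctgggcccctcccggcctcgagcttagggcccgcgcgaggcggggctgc
Slc25a47, chr12:108850879-108851128, plus strand: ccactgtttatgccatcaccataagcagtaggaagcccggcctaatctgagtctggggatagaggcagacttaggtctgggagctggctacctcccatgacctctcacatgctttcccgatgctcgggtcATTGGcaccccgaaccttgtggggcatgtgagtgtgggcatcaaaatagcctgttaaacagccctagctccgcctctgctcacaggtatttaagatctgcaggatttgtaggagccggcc
Slc25a34, chr4:141623835-141624084, minus strand: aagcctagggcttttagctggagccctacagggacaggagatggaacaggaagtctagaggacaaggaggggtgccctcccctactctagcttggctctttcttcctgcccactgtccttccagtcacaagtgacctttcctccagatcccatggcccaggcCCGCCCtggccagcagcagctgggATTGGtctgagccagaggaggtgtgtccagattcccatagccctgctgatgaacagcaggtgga
Slc25a48, chr13:56438105-56438354, plus strand: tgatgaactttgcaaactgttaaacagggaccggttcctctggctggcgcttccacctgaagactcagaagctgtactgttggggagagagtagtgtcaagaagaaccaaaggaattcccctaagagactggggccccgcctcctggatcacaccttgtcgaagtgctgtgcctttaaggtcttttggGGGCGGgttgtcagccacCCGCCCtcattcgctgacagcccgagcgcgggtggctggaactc
Slc25a3, chr10:91123968-91124217, minus strand: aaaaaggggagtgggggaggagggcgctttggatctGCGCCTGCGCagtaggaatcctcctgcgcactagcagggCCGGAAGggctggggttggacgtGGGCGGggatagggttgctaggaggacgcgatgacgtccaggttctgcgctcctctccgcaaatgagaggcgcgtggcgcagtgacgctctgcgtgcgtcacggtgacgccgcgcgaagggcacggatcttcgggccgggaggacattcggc

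The promoter of Slc25a42 held 5 CCAAT boxes and 1 GC box in 63.6% GC, and that of Slc25a3 held the NRF-1 and GABP letters and a GC box in 66.4% GC. Slc25a34 held 1 CCAAT box and 1 GC box, Slc25a47 held 1 CCAAT box, and Slc25a48 held 2 GC boxes. Over the 43 promoter windows listed for 34 of the family genes, the GC box occurred in 74.4% and the CCAAT box in 46.5%, beside 32.7% and 33.9% of 32851 windows of all genes. GABP letters stood in 6 family windows (14.0%, against 6.91% of all windows) and NRF-1 letters in 2 (4.65%, against 3.74%). The family windows were also richer in GC, with a median of 58.0% against 52.4%, and no motif share was compared by a test. The letters TNAAGGTCA of the estrogen-related receptor site and the PPAR and RXR direct repeat, AGGTCA at both ends of any 1 base, were in 0 of the 43 windows and in 1.14% and 0.033% of all. CACGTG, the E-box, was in 8 windows (18.6%, against 6.02%), TGACGTCA, the cAMP response element, in 2 (4.65%, against 1.55%), and the sterol response element TCACNCCAC in 1 (2.33%, against 1.05%). A match is a run of letters in these windows, and nothing about the binding of a factor follows from it.

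Carriers that serve ATP synthesis had bright probe sets. Slc25a3 imports the phosphate that ATP synthase joins to ADP. Its signals were 244.8, 200.8 and 212.6 in KO and 331.0, 352.2 and 245.8 in WT. The KO animals all lay below the WT animals, although KO 1 and WT 3 were nearly level. The means were 219.4 ± 22.8 (SD, n = 3) and 309.7 ± 56.3 (SD, n = 3), a log2 difference of -0.49 (CI -0.99 to 0.02; limma unadjusted p = 0.0557, adjusted p = 0.601). The difference was -0.32 without pair 2 and -0.62 without pair 3.

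The tested ADP/ATP carriers differed less. Slc25a5, the form found in most tissues, read 305.0, 220.3 and 261.4 in KO and 336.3, 319.8 and 254.0 in WT, with KO below WT in pairs 1 and 2 and a log2 difference of -0.21 (CI -0.71 to 0.29). All 8 of its probe sets had a negative difference, from -0.26 to -0.14. Slc25a4, the heart and muscle form, read 205.3, 209.1 and 201.9 in KO and 223.3, 230.8 and 206.2 in WT. Each KO animal was slightly below its littermate, KO 2 lay above WT 3, and the log2 difference was -0.10 (CI -0.54 to 0.35). Its 3 bright probe sets were lower in KO in all 3 pairs, while a dim one gave 0.06.

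The ATP-Mg/phosphate carriers, which adjust the adenine nucleotide pool of the matrix, had smaller or less even differences. Slc25a23 differed by -0.10 and Slc25a24 by 0.23, with the sign alike in each pair and the groups overlapping. Slc25a25 varied widely, at 3.58, 1.81 and 2.56 in KO and 5.36, 3.75 and 1.28 in WT. Its KO animals were lower in pairs 1 and 2 and higher in pair 3, and the CI of its difference of -0.21 ran from -1.15 to 0.73. The other probe sets of Slc25a25, with mean signals of 0.715 and 0.422 and not tested, were lower in KO in all 3 pairs. Over the 6 tested carriers of adenine nucleotides and phosphate the median was -0.15, with 5 negative. Of all tested genes 61.5% were negative, with a median of -0.07.

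Carriers of other nucleotides and cofactors went both ways, with a median of 0.04 over 8 genes. Slc25a36 and Slc25a33 both carry pyrimidine nucleotides. Slc25a36 read 23.5, 25.1 and 29.9 in KO and 30.9, 37.9 and 30.2 in WT, so that the groups met without overlap, and its log2 difference was -0.33 (limma unadjusted p = 0.155, adjusted p = 0.703). Its dimmer probe sets gave -0.37 and -0.58, the latter with an unadjusted p of 0.0218 and an adjusted p of 0.505. Slc25a33 read 20.3, 15.9 and 15.7 in KO and 17.0, 15.0 and 10.5 in WT, higher in the KO littermate each time but with overlap, a difference of 0.30 (limma adjusted p = 0.716).

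Slc25a51 carries NAD+ into mitochondria. It read 196.2, 130.1 and 153.8 in KO and 179.1, 171.3 and 135.9 in WT, with wide overlap. Its log2 difference was -0.03 (CI -0.54 to 0.48), which was 0.03 with the signals as deposited and 0.16 without pair 2. The dimmer probe sets of Slc25a51 gave -0.25 and 0.18, so its direction depended on the probe set. Slc25a26, the S-adenosylmethionine carrier, differed by -0.38 (CI -0.98 to 0.23), and its second probe set by -0.13. The folate carrier Slc25a32 differed by -0.09, Slc25a17 of the peroxisomal membrane by 0.11 and Slc25a16 by 0.18, with overlapping groups in each.

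The carboxylate and acylcarnitine carriers link the matrix to fatty acid synthesis and oxidation. Slc25a1 exports citrate, from which the cytosol makes acetyl-CoA. Its KO signals of 85.4, 90.5 and 86.0 were nearly level, whereas WT read 130.7, 144.1 and 75.2. KO was lower in pairs 1 and 2 and higher in pair 3, and the log2 difference was -0.36 (CI -0.94 to 0.22; limma adjusted p = 0.716). It was -0.21 without pair 2 and -0.64 without pair 3.

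Slc25a20 takes acylcarnitines in for fatty acid oxidation. It read 231.1, 164.4 and 225.3 in KO and 240.6, 230.5 and 169.7 in WT, a difference of -0.05 (CI -0.61 to 0.52), which was 0.02 with the signals as deposited and 0.18 without pair 2. Slc25a11, the oxoglutarate/malate carrier of the malate-aspartate shuttle, read 75.7, 54.0 and 58.8 in KO and 73.0, 60.7 and 56.5 in WT. Pair 1 lay above the other animals for this gene, its littermates were close to each other, and the difference was -0.02 (CI -0.47 to 0.44), with the sign turned under 3 other settings, at 0.04 to 0.06. The dicarboxylate carrier Slc25a10 was higher in KO in pair 1 and lower in pairs 2 and 3, with wide overlap and a difference of 0.18 (CI -0.50 to 0.86).

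Amino acid carriers had a median of 0.03 over 6 tested genes. Slc25a44, which brings branched-chain amino acids into brown fat mitochondria, read 11.5, 8.31 and 9.42 in KO and 14.4, 16.6 and 8.78 in WT. The KO animal was lower in pairs 1 and 2, and the log2 difference was -0.41 (CI -1.02 to 0.21; limma unadjusted p = 0.159, adjusted p = 0.705), or -0.11 without pair 2. Both other probe sets of Slc25a44 were lower in KO in all 3 pairs, at -0.52 and -0.33.

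Slc25a12, the aspartate/glutamate carrier of excitable tissues, read 2.00, 7.56 and 3.28 in KO and 1.82, 2.81 and 3.80 in WT. Its highest signals fell on KO 2 and WT 3, the arrays with the highest skeletal muscle marker sums, and whether muscle RNA has a part in them was not tested. Its difference of 0.45 had a CI from -0.35 to 1.25, and without pair 2 it was -0.04. Slc25a29, a carrier of basic amino acids, gave 0.25 with its brightest probe set and -0.09 and -0.44 with the others tested, so that its direction depended on the probe set. The glutamate carrier Slc25a22 read 17.6, 11.9 and 10.7 in KO and 15.7, 9.49 and 11.4 in WT, with pair 1 highest, wide overlap and a difference of 0.14. The glycine carrier Slc25a38 and the ornithine carrier Slc25a15 differed by -0.07 and -0.15, with overlap in each.

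Carriers of iron and glutathione had a median of -0.11 over 4 genes. Slc25a39, which imports glutathione, reached at most 40.4% of the highest signal on its array, so its probe set was not at the top of the scale. It read 278.3, 234.7 and 274.0 in KO and 336.1, 370.2 and 245.5 in WT. KO was lower in pairs 1 and 2 and higher in pair 3, a log2 difference of -0.26 (CI -0.80 to 0.29), and it was -0.06 without pair 2. All 5 probe sets of Slc25a39 were negative, from -0.56 to -0.22. Its relative Slc25a40 differed by 0.09, and the iron carriers Slc25a28 and Slc25a37, the mitoferrins, by -0.02 and -0.19.

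The remaining carriers have no firmly assigned substrate here or lie outside these classes. Slc25a27 and Slc25a30, sequence relatives of the uncoupling proteins, differed by 0.37 (limma unadjusted p = 0.0959) and -0.20. Slc25a27 read 1.93, 1.84 and 2.99 in KO and 1.54, 1.56 and 2.03 in WT, and KO was higher in all 3 pairs with overlap. Slc25a30 read 5.87, 4.39 and 5.61 in KO and 5.92, 6.95 and 5.38 in WT, with KO lower in pair 2 and near its littermate in the others. A dimmer probe set of Slc25a30 gave 0.18, with KO higher in all 3 pairs, and another gave -0.10. The direction of this gene depended on the probe set. Slc25a46, an outer membrane member that takes part in mitochondrial dynamics, read 55.6, 68.5 and 70.6 in KO and 64.7, 78.0 and 68.5 in WT, a difference of -0.12. Slc25a35 read 57.4, 60.5 and 66.6 in KO and 64.8, 75.6 and 69.0 in WT, lower in each KO littermate with a difference of -0.18 (CI -0.64 to 0.27). Slc25a45 and Slc25a53 differed by -0.18 and -0.23, with pairs that went opposite ways.

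Ucp1 and Ucp3, carriers by sequence, also overlapped between genotypes. Ucp1 read 624.1, 342.6 and 368.1 in KO and 655.3, 526.4 and 345.2 in WT, a log2 difference of -0.20 (CI -0.73 to 0.33), and 0.01 without pair 2. Ucp3 read 40.4, 11.2 and 13.1 in KO and 29.7, 28.6 and 10.8 in WT, a difference of -0.21 that was 0.36 without pair 2. Ucp2 is not analysed here, because no probe set named it alone.

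**Figure D3:**
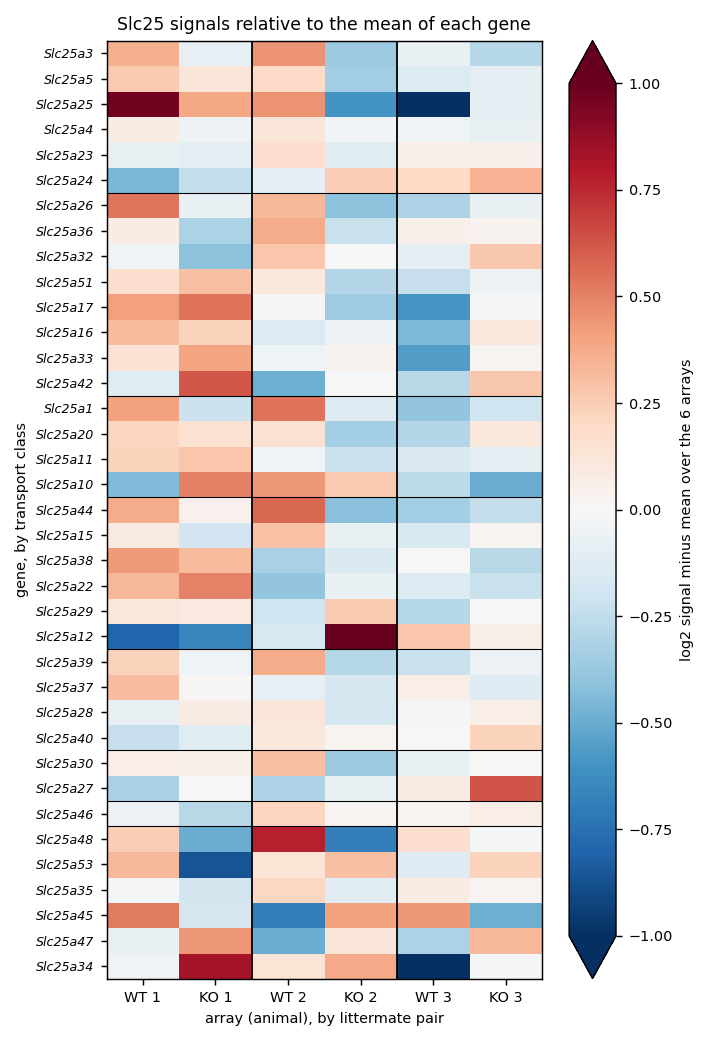
Log2 signal of each tested Slc25 gene minus its mean over the 6 arrays (colour, clipped at 1 either way), with genes grouped by transported substrate and animals side by side by littermate pair. Columns of pair 1 share a colour for genes such as Slc25a11, Slc25a22 and Slc25a38, and Slc25a12 stands out in KO 2.

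The pairs differed among themselves. In pair 1, 23 of 37 carriers were lower in the KO animal (62.2%, against 53.2% of all tested genes), and in pair 2 it was 24 (64.9%, against 71.8%). In pair 3, 12 were lower (32.4%, against 42.9%). The family medians of the log2 ratio were -0.08, -0.19 and 0.15 in pairs 1 to 3, beside -0.03, -0.24 and 0.06 over all tested genes.

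**Figure D4:**
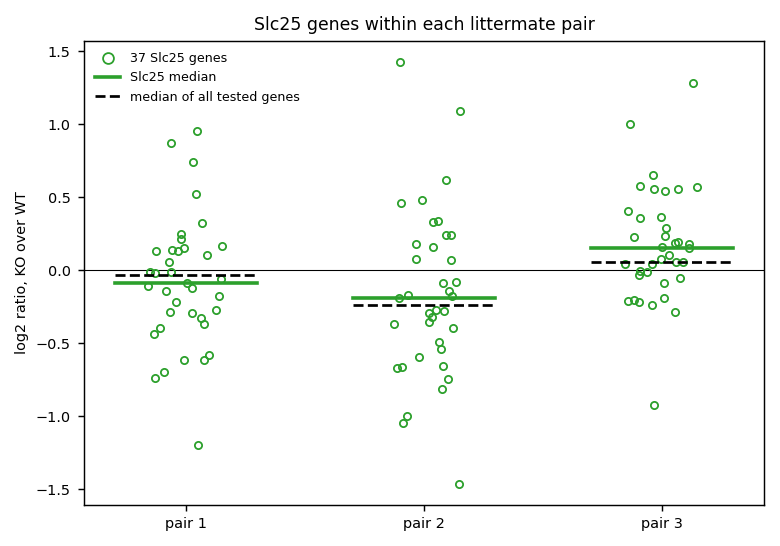
Log2 ratio of KO over WT (vertical axis) of the 37 tested Slc25 genes within each littermate pair; the green line is the family median and the dashed black line is the median of all tested genes. The family median lies below 0 in pairs 1 and 2 and above 0 in pair 3, and the median of all tested genes has the same sign in each.

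In pair 1 both animals lay above the other 4 for 8 carriers (21.6%, against 12.8% of all tested genes): Slc25a11, Slc25a16, Slc25a17, Slc25a20, Slc25a22, Slc25a33, Slc25a38 and Slc25a51. Both lay below the other 4 for 4 carriers (10.8%, against 13.6%): Slc25a12, Slc25a24, Slc25a40 and Slc25a46. These were the animals in which Ppargc1a, a coactivator of mitochondrial genes, and Dio2, the enzyme that activates thyroid hormone in BAT, were highest. Ppargc1a read 111.4 and 72.7 in KO 1 and WT 1 and 9.88 to 12.2 in the other animals. Dio2 read 101.1 and 44.3 in KO 1 and WT 1 and 4.05 to 15.3 in the others. An RNA control also set these arrays apart. The 3′ to 5′ ratio of pyruvate carboxylase was 10.7 in KO 1 and 8.99 in WT 1, against 22.1 to 52.9 in the others. What the animals of pair 1 shared besides their litter was not tested.

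Genes that work beside the carriers were read from lists by function, and 0 of their members passed the adjusted test. Their counts at an unadjusted p under 0.05 stand beside the 3.22% of all tested genes that were higher in KO and the 4.98% that were lower at that p. Of all tested genes, 10.9% were higher and 19.7% lower in KO in all 3 pairs. Groups without overlap were found for 4.43% that were higher in KO and 7.87% that were lower. The 16 tested subunits and regulators of ATP synthase, which use the phosphate and ADP that Slc25a3, Slc25a4 and Slc25a5 bring in, had a median of -0.05, and 0 of 16 had an unadjusted p under 0.05. The 14 tested genes for import and insertion of carrier proteins had a median of -0.06, again with 0 of 14 under that p. Among 6 enzymes of the malate-aspartate and glycerol phosphate shuttles the median was -0.23. Got2, Gpd1 and Gpd2 were lower in KO in all 3 pairs, at -0.34, -0.27 and -0.42, with groups that overlapped. Among 7 genes of the carnitine system, around Slc25a20, the median was 0.03.

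A list of 7 tested genes around citrate, malate and acetyl-CoA, which meets the citrate exported by Slc25a1, had a median of -0.53. Of its differences 7 of 7 were below 0, against 61.5% of all tested genes, a share that depends on the scaling. Cs, the matrix enzyme that makes citrate, was at -0.04, and Acacb and Fasn, which serve malonyl-CoA and fatty acid synthesis, were higher in KO in pair 3. An unadjusted p under 0.05 was found for 4 of the 7, against 4.98% of all tested genes that were lower at that p, and these 4 were lower in KO in all 3 pairs, against 19.7%. They were Acly, the enzyme that splits citrate (-0.53), Acaca, which makes malonyl-CoA (-0.81), Acss2, which activates acetate (-0.74), and malic enzyme Me1 (-0.65), with limma adjusted p of 0.449 to 0.554. Acly read 337.0, 372.3 and 397.4 in KO and 538.4, 595.8 and 471.2 in WT, without overlap. Acaca read 194.4, 158.8 and 174.9 in KO and 319.8, 376.5 and 239.2 in WT, also without overlap. Acss2, at 82.1, 139.1 and 128.7 in KO and 186.7, 235.0 and 157.4 in WT, separated as well, with its lowest signal in KO 1. Me1 read 150.1, 142.4 and 130.7 in KO and 259.3, 291.1 and 143.3 in WT, and its groups overlapped through WT 3. The list medians by pair were -0.68, -0.76 and -0.13, and pair 3 was also the pair in which Slc25a1 was higher in KO. With each pair left out in turn, 1 to 4 of the 7 had an unadjusted p under 0.05. The list was chosen with earlier results of these data known, so these counts only describe it. The 5 white adipocyte markers named above were lower in KO as well, and their part in this list was not tested.

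Branched-chain amino acid breakdown, which follows transport by Slc25a44, had a median of 0.05 over 7 genes. Bcat2, the mitochondrial transaminase, differed by 1.22 (limma adjusted p = 0.364) and Ppm1k, the phosphatase of the branched-chain keto acid dehydrogenase, by 0.93 (adjusted p = 0.403), both higher in KO. Bcat2 read 4.57, 4.56 and 5.56 in KO and 2.18, 1.99 and 2.12 in WT. Ppm1k read 15.1, 21.7 and 24.6 in KO and 9.11, 12.5 and 10.1 in WT. Neither overlapped, and Slc25a44 itself was at -0.41 (-0.11 without pair 2). Of 11 genes for iron, haem and glutathione, Tfrc, the transferrin receptor, had an unadjusted p of 0.0353 and a log2 difference of 0.92, at 38.9, 108.2 and 54.0 in KO and 11.5, 51.9 and 56.5 in WT, and the list median was -0.01. Of 22 other genes for transport across mitochondrial membranes, Sfxn2, a sideroflexin, read 3.34, 5.33 and 4.09 in KO and 2.15, 2.45 and 2.56 in WT. It was the 1 gene of that list at an unadjusted p under 0.05, with a log2 difference of 0.81 (limma adjusted p = 0.415) and no overlap, and the list median was -0.08. In whole tissue, fewer cells of a type and less RNA per cell cannot be told apart for any of these genes.

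**Figure D5:**
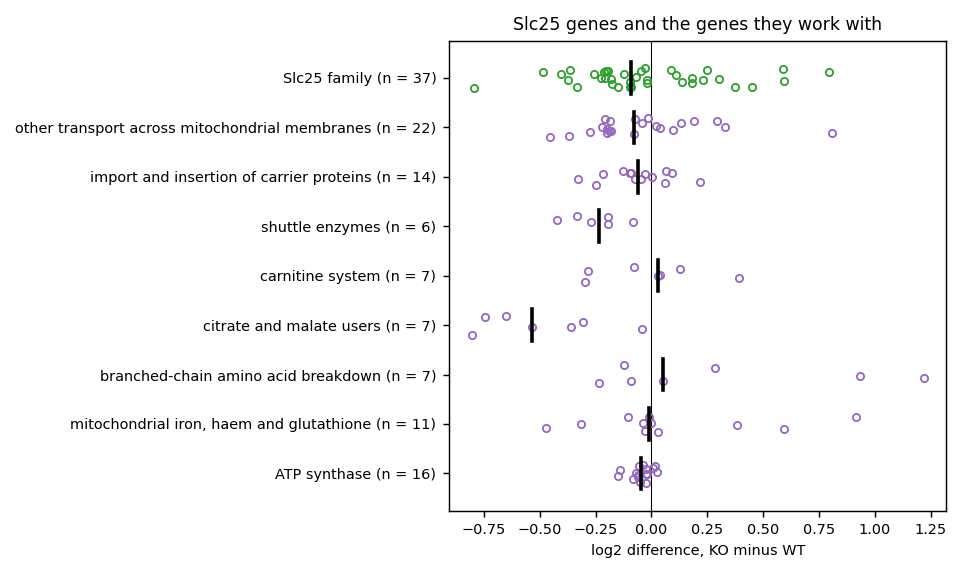
Log2 difference, KO minus WT (horizontal axis), of each tested gene of the Slc25 family and of 8 lists of genes that work with it; circles are genes and black bars are list medians. The family median (-0.09) lies near 0, and the list labelled citrate and malate users has a median of -0.53.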

How the data were processed

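BAT RNA of 6 mice was labelled with biotin and read on 1 Affymetrix mouse array each. The deposited values are linear intensities, 1 for each probe set, for which the submitters' processing notes name GCOS. Which algorithm and scaling it ran with is not given in the sources here. After 64 control probe sets were set aside, 45037 remained, of which 34945 carried 1 gene symbol in the platform annotation, 932 several and 9160 were unlisted. Each intensity was divided by its array median, floored at 0.25 and taken to log2, so folds of genes with signals under the floor are understated. No tested carrier had such a signal at its brightest probe set.

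For 22356 probe sets the mean scaled signal exceeded 1. These entered limma 3.58.1 (R 4.3.3, lmFit and eBayes with terms for genotype and littermate pair) and were adjusted by Benjamini-Hochberg at 0.05. The fit was first run on simulated data with planted differences larger than that of any carrier. That run therefore does not bear on differences of the size reported for carriers. The series' design text names the numbered animals as littermate pairs, which gives the pairing; deviations from group means correlated by 0.446, 0.0847 and 0.160 within pairs and by -0.359 to 0.281 between them. Each gene was read from its brightest probe set. Values on every array were given for genes with an unadjusted p under 0.05, the 10 brightest carriers and the brightest of each substrate class. Other carriers were given where the text needed their values. From partner lists, genes with an unadjusted p under 0.05 were named, or up to 2 per list with the same direction in all 3 pairs. Gpd1 among the shuttle enzymes was added after its values were seen. Cs, Acacb and Fasn of the citrate and malate list were also named outside this rule. Ucp1, Ucp3 and the deleted gene were always named. The members, lists and naming rule were chosen with earlier results of these data known. All 44 symbols are current in the GRCm38.p6 gene table. Promoters came from RefSeq. Alternatives were other scalings, floors, a pseudocount, filters, a trended robust prior, a fit without the pair, other choices of probe set and leaving out each pair.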

Additional observations from a re-analysis of the deposited data

How the results depend on the processing

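Under all 14 alternatives 0 Slc25 genes passed the adjusted p. Lowest adjusted p over the alternatives were 0.0858 for Slc25a42 (up to 0.809), 0.0975 for Slc25a48, 0.169 for Slc25a3, 0.179 for Slc25a34 and 0.222 for Slc25a47, and each of these kept its direction. Over all probe sets, 123 passed with a pseudocount of 1, 40 with a filter above 2, 311 with a trended robust prior and 0 to 255 with a pair left out (255 without pair 1); the cause was not tested. Without the pair as a block 3 carriers had an unadjusted p under 0.05 (4 with it) and the iron, haem and glutathione list had 0 in place of 1, and no count past the adjusted p changed.

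The count of carriers with an unadjusted p under 0.05 was 7 after quantile normalization (Slc25a3, Slc25a27 and Slc25a33 added) and 2 to 4 with a pair left out (2 without pair 1); without pair 3 it held 0 that were higher in KO and 3 that were lower. Carriers lower in KO in every pair numbered 3 with plain probe sets and 8 to 18 with a pair left out (18 without pair 3), those higher 8 to 11 (11 without pair 2), and those at 1.5-fold in both remaining pairs 1 to 3; requiring fewer pairs makes these counts larger by construction. In the partner lists, counts with an unadjusted p under 0.05 were, for iron, haem and glutathione, 0 with the signals as deposited, after quantile normalization and without a filter, 2 with the trended prior and 0 to 2 with a pair left out. They were 2 for other transport after quantile normalization, 1 for shuttle enzymes with the pseudocount, the trended prior and the mean over probe sets, and 1 for the carnitine system with the trended prior (0 to 1 with a pair left out). Citrate and malate users had 2 without a filter and 1 to 4 with a pair left out (1 without pair 1 and 1 without pair 2), and branched-chain breakdown had 1 with plain probe sets. Of the partner genes named, Bcat2 passed the adjusted p with the pseudocount, the filter above 2, the trended prior and without pair 1, Ppm1k with the pseudocount and the trended prior, and Acaca and Acss2 with the trended prior.

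The sign turned under at least 1 alternative for 16 of the 37 tested carriers, each within 0.45 log2 units of 0, and with a pair left out for 14 of them. It turned without pair 1 for Slc25a10, Slc25a32, Slc25a45 and Slc25a53, without pair 2 for Slc25a12, Slc25a25 and Slc25a28 beside those given below, and without pair 3 for Slc25a16, Slc25a17, Slc25a38 and Slc25a45, with both other scalings for Slc25a28, and with the mean over probe sets for Slc25a29. With the signals as deposited the differences of Slc25a20, Slc25a51 and Slc25a11 turned to 0.0159, 0.0329 and 0.0426, quantile normalization gave 0.0505 for Slc25a11, and plain probe sets gave 0.0589 for Slc25a4. With a pair left out, Slc25a20 ran from -0.273 to 0.175, Slc25a51 from -0.133 to 0.156, Slc25a11 from -0.0569 to 0.0552, Slc25a30 from -0.336 to 0.0248, Ucp1 from -0.345 to 0.0110 and Ucp3 from -0.534 to 0.364, each highest without pair 2. Slc25a34 was 0.54 with the pseudocount. The 7 carriers below the array median could be fitted without the filter alone.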
